A study of Mus musculus with 12 samples.

Results

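Activator protein 1 (AP-1) is a family of transcription factors that bind DNA in pairs, and the 10 genes described here are Fos, Fosb, Fosl1, Fosl2, Jun, Junb, Jund, Atf3, Batf3 and Maff. They were chosen by name, as the rows of the deposited raw counts whose Ensembl identifier maps to these symbols, and they are 10 of the 54232 genes in that table. RNA was sequenced from 12 libraries of B16F10, a mouse melanoma cell line that grows in C57BL/6 mice, in 4 groups of 3. WT were untreated cells in culture. The relapsed lines ITF1, Rel and ITM were sorted from tumors that had come back after immunotherapy and were grown to confluency before RNA extraction. Lyso were cultured cells to which lysosomes (secreted granules) from T cells had been added, for 48 hours according to the labels, while the methods of the study give a much shorter time. Tumor were cells sorted from such relapsed tumors, from subcutaneous injection into mice of 6 weeks by the labels, where the methods of the study give an older age range for all experiments, with RNA extracted at once. The agents of the immunotherapy are not given for the single libraries in the sources used here. Each relapsed line is a line of its own, so the spread within that group is a spread between lines, and nothing states whether the libraries of the other groups came from separate cultures or animals. The p-values therefore measure the spread between these samples only, which may be technical. Tumor cells were digested from tissue with enzymes and sorted just before lysis and the cultured cells were not, so growth in the animal, treatment, digestion and sorting cannot be told apart in any comparison with Tumor.

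AP-1 proteins carry a basic region that touches DNA and a leucine zipper that holds a partner. Proteins of the Fos group (Fos, Fosb, Fosl1, Fosl2) need a Jun partner, Jun proteins (Jun, Junb, Jund) also pair with each other, and Atf3, Batf3 and Maff are related zipper proteins that join the network. Fos, Fosb, Jun, Junb and Atf3 are textbook immediate early genes, which are transcribed within minutes of a signal through MAP kinases and serum response factor and whose transcripts are short-lived, whereas Jund is known for steady expression.

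The counts on genes were 1667398, 2350129 and 16384021 in the 3 WT libraries, 12749399 to 16402629 in the relapsed lines, 10895611 to 12675277 in Lyso and 3102442 to 5049496 in Tumor. Depth thus differed between groups, and 3 counts, taken here as the floor of detection in a library, stood for 1.80 CPM (counts divided by the library's size and put on one scale) in WT 1 and 0.183 CPM in the deepest library. Such floors cover counting error only. Levels are given as CPM on library sizes adjusted by TMM, a normalization that assumes most genes do not change. Differences are log2 fold changes from edgeR's quasi-likelihood test on the counts with all 12 libraries in one fit, in which all 10 members passed the filter on low counts. A gene was called at a Benjamini-Hochberg adjusted p under 0.05, over the 14924 genes tested, and an absolute log2 fold change over 1. A permutation test of 3 libraries against 3 cannot give a p under 0.1, so none was used. The melanocyte genes were present in every group: the sum of 10 of them (Pmel, Tyrp1, Dct and others) was 19810 to 28450 CPM in WT and 20550 to 22660 CPM in Tumor, and 0 of the 10 were called between them by edgeR (4 had an unadjusted p under 0.05, and DESeq2 called 1 higher).

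The DNA just before the start is shown for Fos and Fosb, the Fos pair with the largest changes below, and for Jun and Maff. Of the members with a promoter, only Jun and Maff held a cyclic AMP response element (CRE) or its variant TGACATCA in this stretch. Other forms of the CRE with 1 base changed were not searched, and Atf3 held 1 of them, TTACGTCA, close before its start. The sequences are from RefSeq (GRCm38.p6), on the strand of the gene, 5′ to 3′, and end at the last base before the start. Capitals mark the CRE (TGACGTCA) or its variant (TGACATCA). The stretches lie directly before the annotated first exon of Fos (chr12:85473640-85473889, plus strand), at the start of Fosb (chr7:19310046-19310295, minus strand), before that of Jun (chr4:95052223-95052472, minus strand) and, for Maff, before the second of its 3 starts, between annotated exons (chr15:79347270-79347519, plus strand).
Fos: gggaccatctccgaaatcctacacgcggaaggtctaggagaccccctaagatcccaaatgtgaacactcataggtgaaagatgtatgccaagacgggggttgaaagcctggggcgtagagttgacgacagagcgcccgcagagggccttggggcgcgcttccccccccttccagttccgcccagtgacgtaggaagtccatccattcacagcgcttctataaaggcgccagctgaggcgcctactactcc
Fosb: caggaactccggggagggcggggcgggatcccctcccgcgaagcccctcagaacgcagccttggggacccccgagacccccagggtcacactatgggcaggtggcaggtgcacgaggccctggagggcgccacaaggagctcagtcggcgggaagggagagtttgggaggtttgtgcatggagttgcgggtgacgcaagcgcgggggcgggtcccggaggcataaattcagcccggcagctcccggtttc
Jun: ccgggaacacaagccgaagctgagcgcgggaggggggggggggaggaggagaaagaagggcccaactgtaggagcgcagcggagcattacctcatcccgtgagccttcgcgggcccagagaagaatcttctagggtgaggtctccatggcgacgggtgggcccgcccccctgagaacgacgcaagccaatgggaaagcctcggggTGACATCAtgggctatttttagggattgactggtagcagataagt
Maff: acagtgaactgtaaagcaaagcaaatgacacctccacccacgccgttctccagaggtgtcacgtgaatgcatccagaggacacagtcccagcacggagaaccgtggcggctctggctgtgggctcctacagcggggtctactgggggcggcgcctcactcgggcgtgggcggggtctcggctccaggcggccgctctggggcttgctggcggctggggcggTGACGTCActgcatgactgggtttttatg

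Motifs were searched on both strands of 300 bases around each start, 250 before and 50 after, in the 9 members that have a promoter in the table (11 promoters, with 3 for Maff). The AP-1 site itself, TGACTCA, was in none of them and in 5.2% of all 32851 promoters. The CRE stood at bases -29 to -22 of the second Maff start and is in 1.79% of all promoters. Its variant stood at -45 to -38 of Jun and at -45 to -38 of the third Maff start, and is in 3.62% of all promoters. TTCNNNGAA, the letters that STAT proteins bind, occurred as TTCCACGAA at -239 to -231 of Batf3 and as TTCCGGGAA at 28 to 36 after the second Maff start, with 8.3% of all promoters holding it. The CArG box of serum response factor matched none of the 9 members and 1.63% of all promoters. Bases further than 250 before the start were not searched, so a box lying there would be missed. A match in letters is not a binding site, and 6 of the 9 members, Fos and Fosb among them, had no match to these motifs in this window. The share of G and C in the 250 bases before the start had a median of 64.0% over the 11 promoters (47.6% for Jund to 76.0% for Batf3) and 52.4% over all promoters. The Jund promoter used here ends at base 70697788 of chromosome 8, before the annotated gene, which begins at 70698949. Its values thus describe DNA apart from the annotated exon.

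Sorted tumor cells had the highest levels of 9 of the 10 genes. For these 9 the lowest Tumor library exceeded the highest WT library, and 9 of the 10 were called higher in Tumor than in WT, while 8.56% of all genes tested were called higher and 2.2% lower. Of all genes tested, 21% showed the same full separation upwards. The median log2 fold change of the 10 genes was 3.19, and that of all genes tested was 0.001. Summed over the family, the level was 251.6 to 383.8 CPM in WT, 181.5 to 376.4 CPM in the relapsed lines, 393.3 to 402 CPM in Lyso and 3587 to 4315 CPM in Tumor.

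**Figure D1:**
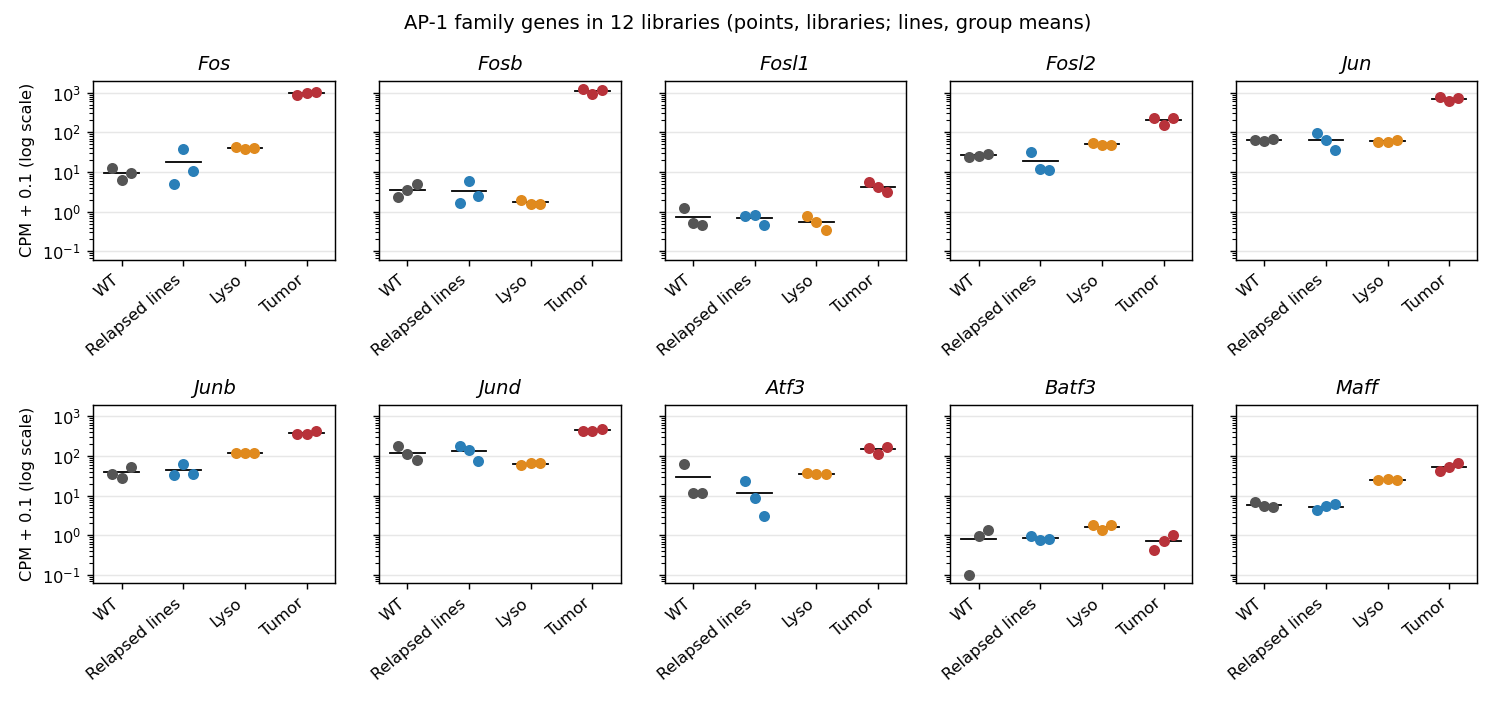
Level of each of the 10 genes in the 12 libraries, in CPM with 0.1 added, on a log scale, with a point for each library and a line at the mean of its group (WT, relapsed lines, Lyso, Tumor). The Tumor points lie above all others in every panel but that of Batf3, where they lie within the range of the WT points.

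In the Fos group, Fos (GRCm38 chromosome 12, 85473890 to 85477273, plus strand), the founding member, had 12.45, 6.33 and 9.38 CPM in WT 1, 2 and 3. Tumor 1, 3 and 4 had 878, 968.6 and 1032 CPM. Its mean rose from 9.39 ± 3.06 CPM (SD, n = 3) in WT to 959.5 ± 77.4 CPM (SD, n = 3) in Tumor, a log2 fold change of 6.70 (SE 0.64, edgeR adjusted p = 1.58e-05), or 104-fold. No library of another group came near the Tumor values, the closest being Lyso 1 with 41.5 CPM. Fosb (chromosome 7, 19302696 to 19310051, minus strand), a close relative of Fos, had 2.26, 3.38 and 4.95 CPM in WT and 1228, 903.6 and 1184 CPM in Tumor. The difference was 8.04 on the log2 scale (SE 0.42, edgeR adjusted p = 9.32e-08), or 264-fold, the largest of the family. WT 1 and WT 2 held only 4 and 8 Fosb counts, whereas the Tumor libraries held 3777 to 5030.

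Fosl2 (chromosome 5, 32135801 to 32157842, plus strand), which encodes Fra-2, had 23.8, 25.8 and 28.9 CPM in WT and 230.8, 156.8 and 226.9 CPM in Tumor. It was higher in Tumor by 2.94 (log2, SE 0.35, edgeR adjusted p = 1.09e-04), a smaller step than in Fos and Fosb from a higher start. Fosl1 (chromosome 19, 5447547 to 5455946, plus strand), which encodes Fra-1, was near the floor: it had 2, 1 and 6 counts in WT, 9, 11 and 6 in the relapsed lines, 7, 5 and 3 in Lyso and 17, 20 and 13 in Tumor. WT 1, WT 2 and Lyso 3 were thus at or under 3 counts. In CPM these were 1.13, 0.422 and 0.354 in WT and 5.53, 4.03 and 3.06 in Tumor, and the call in Tumor (log2 fold change 3.14, SE 0.54, edgeR adjusted p = 0.00151) rests on few reads. Its exons lie for 57.2% of their bases opposite Ccdc85b, a gene on the other strand, which had 7.60 CPM in WT and 9.94 CPM in Tumor (log2 fold change 0.32, edgeR adjusted p = 0.491). The count of Fosl1 was 3.82% to 22.2% of that of Ccdc85b in WT and 25% to 68% in Tumor.

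The Jun genes, whose proteins are the partners of the Fos group, rose as well, from higher levels in WT and by smaller factors than Fos and Fosb. Jun (chromosome 4, 95049034 to 95052222, minus strand, a single exon) had 63.4, 59.9 and 68.2 CPM in WT and 771.7, 616.3 and 725.9 CPM in Tumor, a log2 fold change of 3.46 (SE 0.29, edgeR adjusted p = 4.57e-06). Junb (chromosome 8, 84974484 to 84978718, minus strand), a weaker activator that can oppose Jun, had 34.5, 27.4 and 54.4 CPM in WT and 365.7, 354.5 and 421.1 CPM in Tumor. Its log2 fold change was 3.24 (SE 0.28, edgeR adjusted p = 5.49e-06). Jund (chromosome 8, 70698949 to 70700616, plus strand, a single exon) had 176, 110.6 and 81.8 CPM in WT and 430.7, 418.3 and 481.6 CPM in Tumor. With 1.88 (SE 0.30, edgeR adjusted p = 8.16e-04) it had the smallest fold change of the 9 called genes, and its WT libraries spread more widely than those of Jun. The differences of all 3 Jun genes exceeded the spread within either group.

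A pair of annotated antisense genes overlaps the Jun genes, and both followed their partner. Gm11175 lies opposite Jund and covers 52.6% of its exonic bases. Its count was 69.7% to 81.1% of that of Jund in every library, and its log2 fold change in Tumor against WT was 1.88, equal to that of Jund to this precision. Junos lies opposite 7.3% of the exonic bases of Jun and held 10.2% to 13.4% of the count of Jun. Whether the library kit marks strand is not given in the sources used here, so reads of each pair may not be told apart. Prdx2, opposite 7.5% of Junb, had 219.8 CPM in WT and 231.3 CPM in Tumor.

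Of the partners outside both groups, Maff (chromosome 15, 79346621 to 79359076, plus strand), a small Maf protein that has no activation domain of its own, had 6.79, 5.49 and 5.07 CPM in WT and 42.3, 51.9 and 66.8 CPM in Tumor. Its log2 fold change was 3.29 (SE 0.22, edgeR adjusted p = 5.67e-07), with the smallest SE of the family. Atf3 (chromosome 1, 191170296 to 191218039, minus strand), a stress-induced factor, had 63.4, 11.4 and 11.8 CPM in WT, so that WT 1 was far above the other two, and 161.9, 112.5 and 172.3 CPM in Tumor. The groups did not overlap, and the log2 fold change was 2.56 (SE 0.69, edgeR adjusted p = 0.02). This call was lost without WT 2 (adjusted p = 0.0753), without WT 3 (0.0881) and without Tumor 4 (0.0566), all from edgeR. WT 1 also stood apart from WT 2 and WT 3 in genes of the lists described below. It was above them in Hmox1 (1585 against 119.9 and 178.9 CPM) and Ddit3 (207.7 against 26.6 and 32.3 CPM). In Cd44 it was below them (154.5 against 473.7 and 522.6 CPM). The WT means and spreads of such genes depend on this library. Batf3 (chromosome 1, 191097847 to 191108945, plus strand), known for its role in dendritic cells, was the exception, with 0, 0.844 and 1.30 CPM in WT and 0.325, 0.604 and 0.942 CPM in Tumor, which stood for 1, 3 and 4 counts. Its log2 fold change of -0.64 (SE 0.59, edgeR adjusted p = 0.498) was not called and turned to 0.42 without WT 3. At these depths a change in Batf3 was not detectable.

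Since WT 3 was sequenced far more deeply than the Tumor libraries, Tumor was also compared with WT 1 and WT 2 alone, which have similar depth. Of the 10 genes, 8 were then called higher. Atf3, with a log2 fold change of 2.05 and an edgeR adjusted p of 0.0881, was the one lost.

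Against the other cultured groups the picture in Tumor was similar. Of the 10 genes, 9 were called higher than in the relapsed lines, where 8.36% of all genes were, with a median log2 fold change of 3.39. Likewise 9 were called higher than in Lyso, where 8.78% of all genes were, with a median of 2.43. The 3 comparisons share the Tumor libraries and are not independent. Fosb differed most between Tumor and Lyso, by 9.41 (log2, SE 0.44, edgeR adjusted p = 2.06e-08), or 682-fold, and Lyso had the lowest Fosb levels of all groups. Maff differed least, by 1.09 (SE 0.18, edgeR adjusted p = 6.51e-04). It fell under the fold minimum, to 0.90, without Tumor 4. Atf3 was called in Tumor against Lyso (2.04, SE 0.62, edgeR adjusted p = 0.0303), but not when any single library of either group was left out, with adjusted p between 0.0514 and 0.0937. With only the compared groups in the fit it was called (2.041, edgeR adjusted p = 6.79e-07). Of 15 alternatives run, 8 kept this call and 7 lost it. Batf3 was lower in all Tumor libraries than in any Lyso library, by a log2 fold change of -1.26 (SE 0.52) that was not called (edgeR adjusted p = 0.0968).

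**Figure D2:**
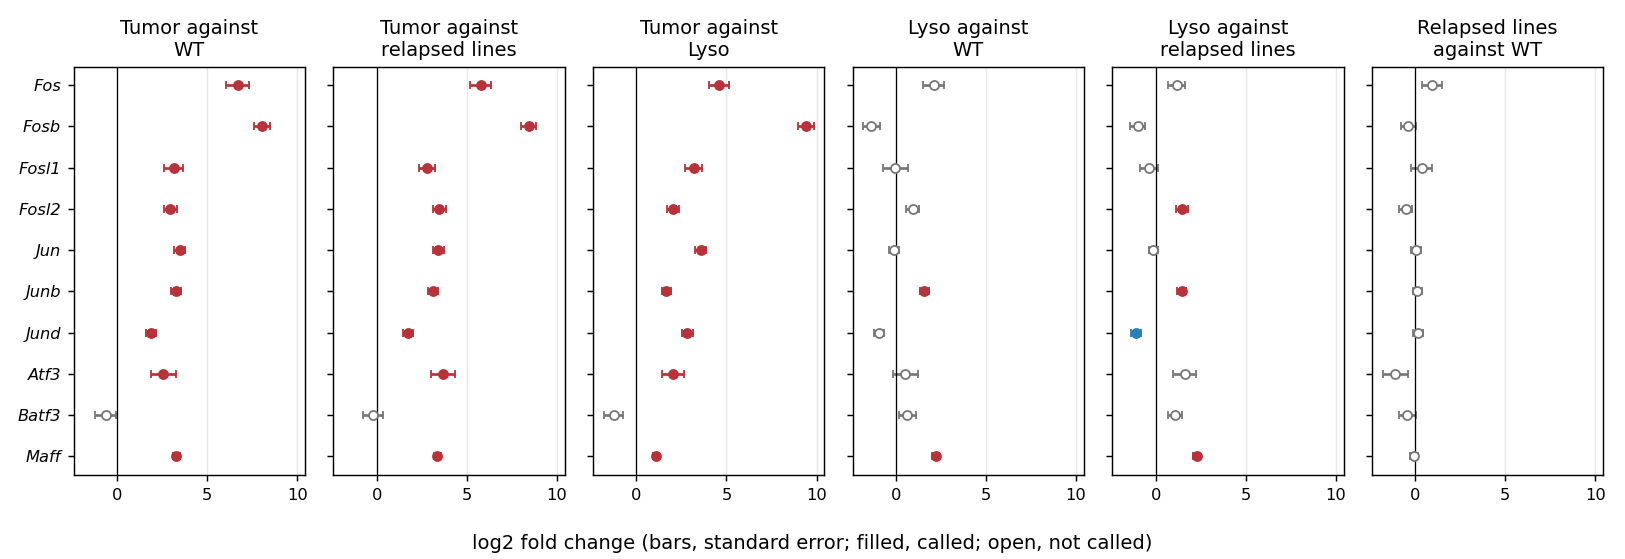
Log2 fold change of each gene in the 6 comparisons between groups (points) with its standard error (bars), filled where the gene was called and open where it was not. The 3 comparisons with Tumor show 9 filled points each, Lyso against WT shows 2, Lyso against the relapsed lines shows 4, of which Jund is lower, and the relapsed lines against WT show none.

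The Tumor libraries also held RNA of other cell types. The sum of 10 fibroblast markers was 113 to 164.7 CPM in WT, 89.8 to 150.9 CPM in the relapsed lines, 143.3 to 165.2 CPM in Lyso and 7889 to 10870 CPM in Tumor, and 9 of the 10 were called higher in Tumor than in WT. Col3a1, a collagen of connective tissue, had 0, 0 and 1 counts in WT and 15191, 20653 and 14314 in Tumor, and Dcn and Lum moved with it. Endothelial markers summed to 2.96 to 10.2 CPM in WT and 48.2 to 53.6 CPM in Tumor (all 6 tested of 8 were called, Kdr, Tek and Cdh5 with the largest fold changes), and myeloid markers to 12.45 to 29.2 and 47.8 to 75.1 CPM (5 of 7 tested, of 10, with C1qb, C1qa and Adgre1 first). Kdr, C1qa and C1qb had 0 counts in every cultured library, and Col3a1, Cdh5 and Tek had at most 1. Such genes passed the filter on low counts only through Tumor, so the numbers of markers called are a description and not a test. Of all genes tested, 8.56% were called higher in Tumor than in WT. Conventional dendritic cell markers stayed low, at 4.66 to 5.91 CPM in WT and 5.85 to 9.41 CPM in Tumor, most of it from Zbtb46. Xcr1 and Clec9a had at most 1 count in a Tumor library. Clec10a had 1, 6 and 4 counts and Itgax 1, 1 and 3 counts in Tumor, and both had 0 in every cultured library. These genes were too low to be tested. Of the T cell markers, which summed to 1.27 to 6.79 CPM in WT and 3.62 to 9.65 CPM in Tumor, 0 of 4 tested were called by edgeR (2 had an unadjusted p under 0.05) and 0 by DESeq2. The part of these cells in the Tumor levels of the AP-1 genes was not tested, and in bulk RNA fewer cells of a type cannot be told apart from less RNA per cell.

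Levels per length, as RPKM (CPM divided by the kilobases of exon), allow the 10 genes to be ordered within a group. In WT the order was led by Jund with 73.6 RPKM, above Jun with 20 and Junb with 16.9, whose libraries overlapped, and then by Atf3 with 13.4, Fos with 3.99, Fosl2 with 2.7 and Maff with 2.23 RPKM, of which each overlapped the gene before it. Maff lay wholly above the genes that followed. Fosb, Batf3 and Fosl1 came last with 0.566, 0.447 and 0.313 RPKM. The relapsed lines kept Jund (79.8 RPKM), Jun (20.6) and Junb (19.0) in front, with Fos at 7.50 and Atf3 at 5.51 RPKM behind them. In Lyso, Junb stood first with 52.2 RPKM, above Jund with 37.8 and Jun with 18.7, and the libraries of these 3 genes did not overlap. Tumor was led by Fos with 408 RPKM, followed by Jund with 266, Jun with 221, Fosb with 177 and Junb with 165 RPKM, of which Jun and Fosb, and Fosb and Junb, overlapped. Jund thus made up 54.9% of the summed RPKM of the family in WT, 58% in the relapsed lines, 23.8% in Lyso and 19.7% in Tumor, and Fos 2.97%, 5.45%, 10.6% and 30.2%. Fosl1 and Batf3 closed the order in Tumor with 2.07 and 0.39 RPKM.

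**Figure D3:**
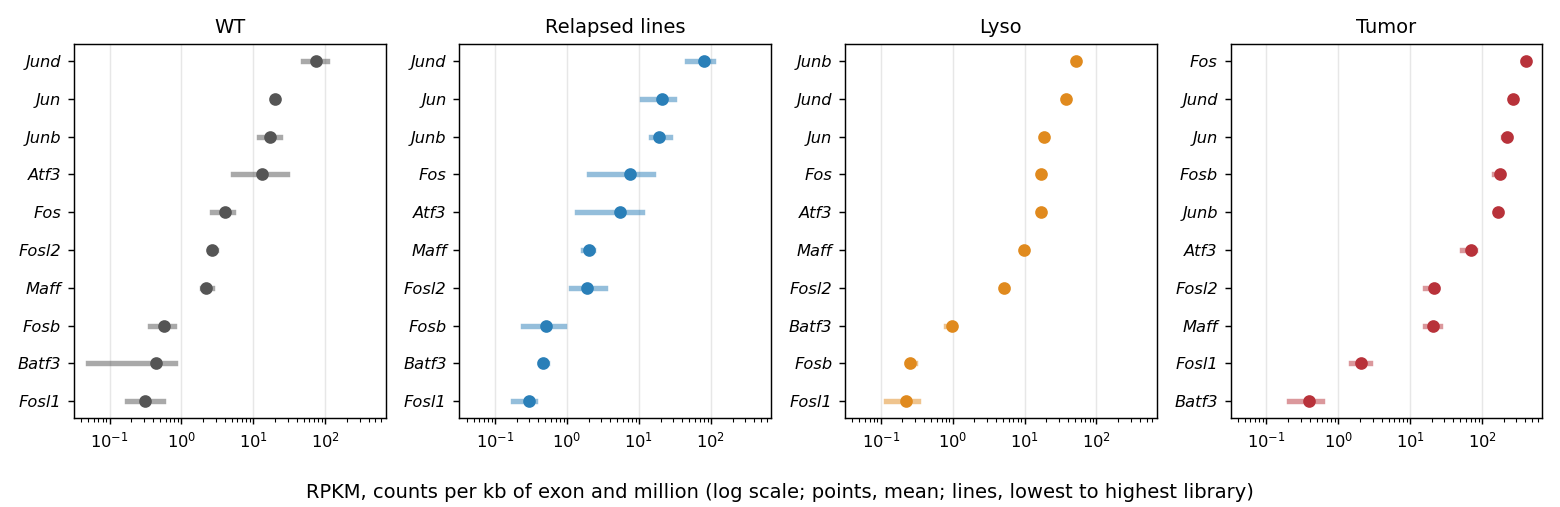
The 10 genes in each group in order of their mean RPKM (points, log scale), with lines from the lowest to the highest of the 3 libraries. Jund leads in WT and the relapsed lines, Junb in Lyso and Fos in Tumor, and Fosb moves from place 8 in WT to place 4 in Tumor.

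Fewer of the genes differed between Lyso and WT. The methods of the study describe a coated plate of low adherence for the granule-treated cells and none for the untreated cells. Effects of the plate and of the granules may therefore not be told apart in this comparison. Junb and Maff were called higher in Lyso than in WT, which is 2 of 10 where 2.43% of all genes were called higher, and 0 of 10 were called lower where 0.576% of all genes were. The Lyso libraries lay wholly above WT for 5 of the 10 (Fos, Fosl2, Junb, Batf3 and Maff) and below for 2 (Fosb and Jund), against 15.8% and 11.6% of the genes tested. The median log2 fold change of the 10 was 0.58, and that of all genes tested was -0.005.

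Maff had 24.2, 26.4 and 25.02 CPM in the 3 Lyso libraries, a narrow band above the 5.07 to 6.79 CPM of WT. Its log2 fold change was 2.19 (SE 0.21, edgeR adjusted p = 1.93e-04), or 4.57-fold. Junb had 122.2, 118.5 and 119.5 CPM in Lyso and 27.4 to 54.4 CPM in WT, a log2 fold change of 1.57 (SE 0.26, edgeR adjusted p = 0.00431), or 2.98-fold. With WT 3, the one WT library of similar depth, as the only control, Maff was still called, whereas Junb was not (1.13, edgeR adjusted p = 0.0975), in a fit where WT 3 is assumed to vary like the other groups. Fos had 41.5, 37.5 and 39.9 CPM in Lyso and 6.33 to 12.45 CPM in WT. Its log2 fold change of 2.10 (SE 0.58) was larger than that of Junb but was not called (edgeR adjusted p = 0.0573), and DESeq2 did call it (adjusted p = 0.0189). For all 3 genes the Lyso libraries lay close together.

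Fosl2 had 55.3, 47.7 and 47.9 CPM in Lyso, above all WT libraries, with a log2 fold change of 0.92 (SE 0.34, edgeR adjusted p = 0.166). Fosb and Jund went the other way without being called. Fosb had 1.89, 1.49 and 1.46 CPM in Lyso, below the 2.26 to 4.95 CPM of WT (log2 fold change -1.37, SE 0.46, edgeR adjusted p = 0.124). Jund had 58.9, 65.2 and 65.2 CPM in Lyso, below the 81.8 to 176 CPM of WT (-0.94, SE 0.29, edgeR adjusted p = 0.0946). Neither difference passed this test, and both groups of libraries were separate. Fosb was called lower with only the compared groups in the fit (-1.355, edgeR adjusted p = 0.036) and without a filter on low counts (-1.393, 0.000795), and Jund without WT 3 (-1.166, edgeR adjusted p = 0.049). The other alternatives run did not call the fall, 13 of 15 for Fosb and 15 of 16 for Jund. Jun had 58.4, 58.4 and 62.5 CPM in Lyso, close to WT (-0.10, SE 0.27), and Atf3 had 37.2, 36.2 and 34.9 CPM, within the wide range of WT. Batf3 had 1.70, 1.30 and 1.70 CPM in Lyso, of which the lowest barely exceeded the 1.30 CPM of WT 3 (log2 fold change 0.63, SE 0.45), and Fosl1 had 0.66, 0.466 and 0.243 CPM.

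Lyso also carried T cell transcripts. The sum of 12 T cell markers was 15.7 to 18.5 CPM in Lyso and 1.27 to 6.79 CPM in WT, and 3 of the 4 tested were called higher. Gzmb, the granule protease granzyme B, had 64, 72 and 63 counts in Lyso and 0 in all 3 WT libraries, and Cd8a and Cd8b1 were called with it. These 3 genes had 0 counts in WT and passed the filter on low counts only through Lyso. The number of T cell markers called is thus a description and not a test. Of all genes tested, 2.43% were called higher in Lyso than in WT. Of the 10 fibroblast markers, Thy1, which T cells also express, was called higher in Lyso, and Postn and Col1a1 were called lower. Among 7 myeloid markers tested, 1 was called higher, Ptprc, which all leukocytes carry. The part of T cell RNA in the Lyso levels of the AP-1 genes was not tested.

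The relapsed lines could not be separated from WT in any AP-1 gene. Of the 10, 0 were called in either direction by edgeR and by DESeq2, and 0 had an unadjusted p under 0.05. Few genes were called at all in this comparison, 0.0134% higher and 0.0268% lower, and no AP-1 gene had lines that lay entirely above or entirely below WT, which held for 10.6% of the genes tested. The median log2 fold change of the 10 was -0.02, and that of all genes tested was 0.008. A p that misses the threshold does not show that levels were equal, and the 3 lines differed widely among themselves.

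Fos ranged from 4.76 CPM in ITF1 to 10.7 in ITM and 37.5 in Rel, so that Rel came close to the Lyso level and ITF1 lay below all WT libraries. Its mean of 17.6 ± 17.4 CPM (SD, n = 3) had a log2 fold change against WT of 0.93 (SE 0.58, edgeR adjusted p = 0.586), which turned to -0.24 without Rel. Junb, too, was highest in Rel with 63.0 CPM, against 33.2 in ITF1 and 35.2 in ITM. ITF1 had the highest Jun (97.5 CPM, against 64.6 in Rel and 35.4 in ITM), Fosl2 (32.3, 12.1 and 11.0), Jund (177.3, 145.3 and 76.9) and Atf3 (23.8, 8.84 and 2.996). Without ITF1, Fosl2 was called lower in the relapsed lines than in WT (-1.21, edgeR adjusted p = 0.0176), the only AP-1 call that any left-out library gave in this comparison. Fosb had 1.54, 5.69 and 2.34 CPM in ITF1, Rel and ITM, with Rel again highest. The other 3 genes varied less: Maff had 4.38, 5.29 and 5.93 CPM, Batf3 0.845, 0.669 and 0.719 CPM and Fosl1 0.691, 0.736 and 0.359 CPM. With WT 3 as the only control, again 0 of 10 were called.

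Set against the relapsed lines, Lyso had 3 AP-1 genes called higher (3.21% of all genes were) and 1 called lower (1.04%). Maff was higher by 2.27 (log2, SE 0.19, edgeR adjusted p = 2.75e-05), Junb by 1.45 (SE 0.25, edgeR adjusted p = 0.00386) and Fosl2 by 1.45 (SE 0.33, edgeR adjusted p = 0.0166). Jund was lower, by -1.08 (SE 0.29, edgeR adjusted p = 0.0381). The Lyso libraries lay wholly above the relapsed lines for 6 of the 10 genes and wholly below for 1, against 15.3% and 14.6% of the genes tested. The median was 1.12 for the 10 genes and -0.01 for all genes tested. Fos was not called (1.17, SE 0.49, edgeR adjusted p = 0.183) but was called without Rel (2.34, adjusted p = 7.42e-04). Atf3 was not called either (1.62, SE 0.64, edgeR adjusted p = 0.15), although all Lyso libraries lay above the relapsed lines, and it was called without ITF1 (2.619, edgeR adjusted p = 0.0266). Fosl2 lost its call without Rel (1.22, edgeR adjusted p = 0.0557) and without Lyso 1 (1.37, 0.076). Jund lost it without ITF1 (-0.82, edgeR adjusted p = 0.117), without Rel (-1.01, 0.0908) and without any 1 of the Lyso libraries (adjusted p 0.114 to 0.141).

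**Figure D4:**
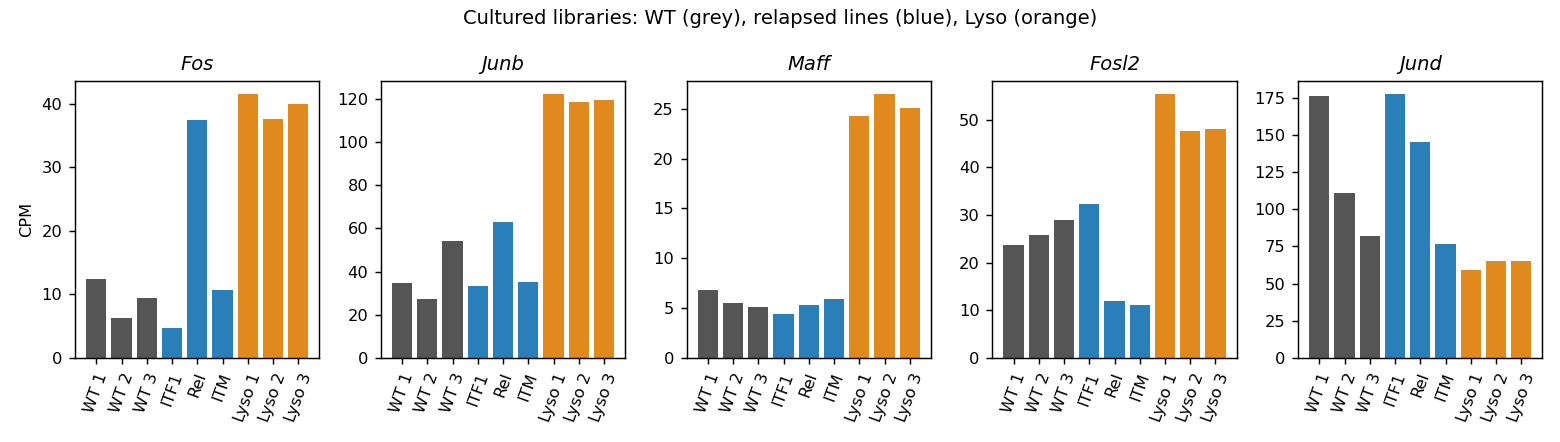
Level of Fos, Junb, Maff, Fosl2 and Jund in CPM in the 9 cultured libraries, a bar for each library (WT grey, relapsed lines blue, Lyso orange), with axes from 0. Maff and Junb stand out in the 3 Lyso bars, Fos in Lyso and in the line Rel, and the Jund bars of Lyso are the lowest of their panel.

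Other genes of the AP-1 network were counted in lists. The share of all genes tested to set beside these counts was 8.56% called higher and 2.2% lower in Tumor against WT. In Lyso against WT it was 2.43% higher and 0.576% lower. Of 19 other zipper factors that can pair with or resemble AP-1, 2 were called higher in Tumor than in WT and 0 lower by edgeR (7 had an unadjusted p under 0.05, and DESeq2 called 1 higher and 0 lower), with a median log2 fold change of 0.23. Cebpd, an acute-phase factor, rose by 2.33 (log2, SE 0.23, edgeR adjusted p = 1.83e-05). In Lyso, 2 of the 19 were called higher than in WT and 0 lower, by DESeq2 as well, with a median of 0.03. They were Batf2, an interferon-induced relative of Batf3 (2.34, SE 0.32, edgeR adjusted p = 0.00114), and Crem, which binds CRE sites (2.31, SE 0.23, edgeR adjusted p = 2.11e-04).

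Among 20 MAP kinases and serum response factor genes that act upstream of AP-1, 4 were called higher and 1 lower in Tumor (median 0.24). Map3k8 rose by 1.98 (log2, SE 0.39, edgeR adjusted p = 0.00365), Map3k1 by 1.54 (SE 0.18, edgeR adjusted p = 8.27e-05) and Srf, which encodes serum response factor, by 1.32 (SE 0.13, edgeR adjusted p = 2.09e-05). In Lyso 0 of the 20 were called by edgeR or by DESeq2, 5 had an unadjusted p under 0.05, and the median was 0.04. The transcripts of these kinases do not report their activity.

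Other immediate early genes moved in Tumor with the AP-1 genes. Of the 19 tested from a list of 20, 16 were called higher in Tumor than in WT and 0 lower, by DESeq2 as well, with a median log2 fold change of 2.21. Egr2 and Egr3, zinc finger factors, had 2, 0 and 2 and 0, 0 and 4 counts in WT, and 64, 56 and 43 and 41, 26 and 33 counts in Tumor. Klf4 rose from 11.97 to 379.5 CPM (5.02, SE 0.24, edgeR adjusted p = 3.62e-08). In Lyso, 2 of the 19 were called higher and 2 lower by edgeR, and 4 higher and 2 lower by DESeq2 (median 0.06). Egr2 had 36, 33 and 37 counts in Lyso, and Zfp36, which destabilizes transcripts, rose from 8.42 to 72.8 CPM (2.97, SE 0.35, edgeR adjusted p = 4.73e-04). Ccn1, a matricellular protein, fell by 1.74 on the log2 scale (SE 0.28, edgeR adjusted p = 0.00347), and Rhob, a small GTPase, fell by 1.18 (SE 0.28, edgeR adjusted p = 0.0295). Ccn1 was called higher in Tumor (2.21, SE 0.28, edgeR adjusted p = 1.76e-04).

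Genes that AP-1 is known to activate were mixed. Of 25 listed, 20 were tested, and 7 were called with raised and 1 with reduced levels in Tumor relative to WT (median 0.80). Mmp3, a matrix metalloproteinase, had 0, 0 and 2 counts in WT and 96, 220 and 174 in Tumor. The cytokine Il6 had 0, 0 and 9 counts in WT and 82, 142 and 136 in Tumor, and Mmp9 had 0, 1 and 2 and 30, 64 and 33. These proteins are also made by fibroblasts and leukocytes, whose markers rose in the same libraries. Sphk1, a lipid kinase, was the gene called lower, although its libraries overlapped (-2.18, SE 0.67, edgeR adjusted p = 0.0393). In Lyso 1 of the 20 was called, the metallothionein Mt2 (1.49, SE 0.28, edgeR adjusted p = 0.00893), with a median of -0.04.

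**Figure D5:**
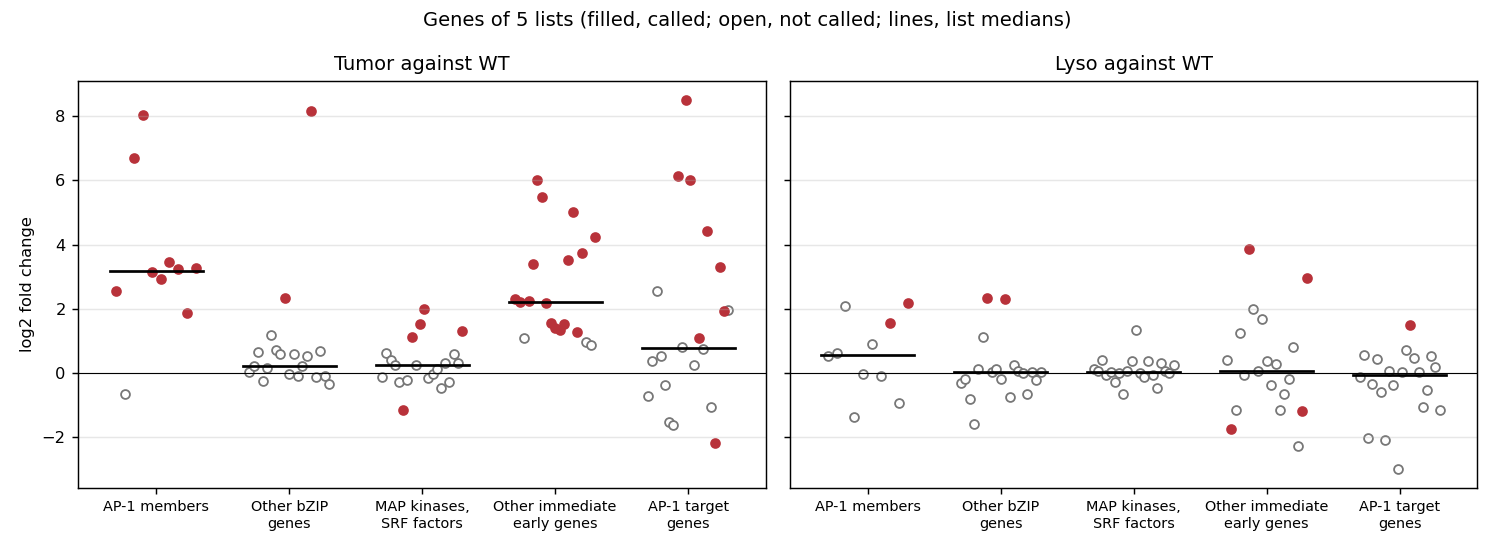
Log2 fold change of each gene in 5 lists (the 10 AP-1 genes, other bZIP genes, MAP kinases with SRF factors, other immediate early genes, AP-1 target genes) in Tumor against WT and in Lyso against WT, filled where called, with a line at the median of each list. In Tumor the AP-1 genes and the other immediate early genes have medians of 3.19 and 2.21 and the other lists medians of 0.23 to 0.80, while in Lyso the AP-1 genes have a median of 0.58 and the other lists medians between -0.04 and 0.06.

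The genes whose pattern over the 12 libraries was most like that of each AP-1 gene were found by Pearson's r of log2 CPM, as a description, since the 3 Tumor libraries set most of it. Fos was nearest to Apold1 (0.983), Nr4a1 (0.976), itself an immediate early gene, and Hs3st1 (0.975). Fosb was nearest to Nynrin (0.995), Abcc3 (0.993) and Fstl1 (0.993), Fosl1 to Gga1 (0.975), Galnt16 (0.975) and Svep1 (0.969), and Fosl2 to Nr4a2 (0.964), Per1 (0.964) and Atf7ip (0.962). Jun was nearest to its antisense gene Junos (0.997), Mrgprf (0.987) and Tnxb (0.986), and Jund to its antisense gene Gm11175 (0.999), the fibroblast marker Pdgfrb (0.972) and Prcd (0.967). Junb lay closest to C4b (0.983), Spry2 (0.982) and Cxcl9 (0.981), and Maff to Mpeg1 (0.989), a macrophage gene, Cxcl9 (0.985) and AW112010 (0.985). Atf3 was nearest to Btg2 (0.95), Kdm6b (0.947) and Pvr (0.94). Batf3, with few counts, was nearest to Hmga1b (0.947), G3bp2 (0.945) and Pspc1 (0.943).

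The members also share short gene bodies. Their median span from first to last annotated base was 7878 bases, against 19568.5 bases over 14912 of the tested genes, and 8 of the 10 were shorter than that median. Atf3, with 47744 bases, was the longest and Jund, with 1668 bases, the shortest.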

How the data were processed

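The authors trimmed adaptors with fastp 0.19.6, aligned the reads to GRCm38 (mm10) with STAR 2.7.1a and deposited raw counts per gene, without normalization, and per the labels also used DESeq2 1.24.0. The annotation release and the strand setting are not given in the sources used here. Reads on genes made up 36.17% to 39.36% of a library, and the 4 rows of reads on no single gene (43.53% to 44.77% on no feature) were left out. Symbols and positions came from GENCODE vM21 (54079 of 54232 identifiers matched), promoters from RefSeq. From the counts, edgeR 4.0.16 in R 4.3.3 (glmQLFit, glmQLFTest, TMM, filterByExpr by group) tested 14924 genes in 1 fit of 12 libraries, and the SE was taken as the absolute log2 fold change divided by the root of the F statistic. The study's methods name DESeq2, used here as an alternative (1.42.0). Further steps ran in Python 3.11.15.

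The members and the gene lists were chosen with earlier results of these data known. The text names all members, from each list up to 3 called genes with the largest fold change in Tumor and in Lyso against WT, and the 3 most alike genes of each member. Genes named outside this rule (Tyrp1, Pmel, Dct, Xcr1, Clec9a, Clec10a, Itgax, Zbtb46, Prdx2, Ccdc85b, Sphk1, Rhob, Hmox1, Ddit3, Cd44, and Ccn1 in Tumor) were chosen after their values were seen. On simulated counts with 200 changed genes, the Tumor against WT fit recovered 181 and called 5 others among 14477 genes tested, and it called 0 without changed genes. The simulation gave all genes one and the same spread and changed only genes above a set level. It does not show how genes with a wider spread or few counts would fare in the real data. The alternatives were DESeq2, size factors by median of ratios (RLE), library size alone, other filters, a fit of the compared groups only, a block by replicate number, single libraries left out, the adjusted p alone, glmTreat, and WT libraries of like depth as controls. The depths per library set the precision, from a floor of 1.80 CPM (WT 1) to 0.183 CPM. The values of 1 gene in the lists are not reported here.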

Additional observations from a re-analysis of the deposited data

Results flagged for a closer look

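Fosb and Jund stood on opposite sides of WT in the Tumor and Lyso groups, and were singled out for that. Every Tumor library was above and every Lyso library below all WT libraries for both genes. The difference between the Tumor and Lyso effects, which share the WT libraries, is the difference of Tumor and Lyso themselves. By edgeR it was 9.414 on the log2 scale for Fosb (adjusted p = 2.06e-08) and 2.813 for Jund (adjusted p = 3.18e-05). Both genes were picked for their separation in these same libraries. These p-values therefore do not test whether Tumor and Lyso lie on opposite sides of WT. On its own, neither fall in Lyso against WT passed the test with all 12 libraries (edgeR adjusted p = 0.124 for Fosb and 0.0946 for Jund). Fosb was called lower with only the compared groups (edgeR adjusted p = 0.036) and without a filter on low counts (0.000795), and Jund without WT 3 (0.049). In most alternatives the fall was again not called, in 13 of 15 for Fosb and in 15 of 16 for Jund. Groups of 3 libraries were not searched for a sample far from the others.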

How the results depend on the processing

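The counts of AP-1 genes called in Tumor stayed within 1.5 times of 9 under all alternatives run, against WT (7 to 9), the relapsed lines (8 to 9) and Lyso (7 to 10), where 7 and 8 include alternatives that tested only 7 or 8 of the genes. The other counts moved. In Lyso against WT, 2 became 1 under glmTreat, 4 without a filter on low counts, 4 with only the compared groups and 1 with only WT 3 as control, and 2 to 3 with a library left out. In Lyso against the relapsed lines, 4 became 1 under glmTreat, 7 without a filter and 2 with only the compared groups, and 2 to 4 with a library left out, 2 being the count without Lyso 1. In the relapsed lines against WT, 0 became 0 to 1 with a library left out, 1 being the count without ITF1. The cause was not tested. Atf3 and Maff lost their call in Tumor against Lyso under glmTreat (adjusted p 0.244 and 0.935), which tests for a fold change beyond the minimum, and Atf3 in Tumor against WT (0.117). Over all genes, 1607 were called in Tumor against WT (449 to 2843 over the alternatives), 1591 in Tumor against the relapsed lines (647 to 2920), 1929 in Tumor against Lyso (929 to 3691), 448 in Lyso against WT (121 to 829), 634 in Lyso against the relapsed lines (172 to 1147) and 6 in the relapsed lines against WT (0 to 265, with 96 by DESeq2).

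Signs turned only for differences that were not called. With only WT 1 and WT 2 as controls, Batf3 in Tumor against WT was 0.424 (log2). With only WT 3 as control, Fosl1 in Lyso against WT was 0.323, and in the relapsed lines against WT Jun was -0.053, Junb -0.31 and Maff 0.043. With a library left out, Batf3 ran from -1.016 to 0.424 in Tumor against WT and from -0.583 to 0.047 in Tumor against the relapsed lines, Fosl1 from -0.68 to 0.292 in Lyso against WT, and Jun from -0.44 to 0.258 in Lyso against the relapsed lines. In the relapsed lines against WT, Fos ran from -0.243 to 1.376, Fosb from -1.084 to 0.144, Fosl1 from -0.313 to 0.661, Jun from -0.359 to 0.339, Junb from -0.237 to 0.505, Jund from -0.116 to 0.469, Batf3 from -0.678 to 0.612 and Maff from -0.222 to 0.038.

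Same-numbered libraries showed little shared deviation from their group means (correlations of -0.008 to 0.065). Such low correlations cannot exclude a pairing, since groups of 3 libraries of unlike depth leave much counting noise. The replicate block was fitted on the compared groups only, so its values belong beside those of these groups without a block. With and without it, 9 AP-1 genes were called in Tumor against WT, Fos was called in Lyso against WT (adjusted p = 0.00356 with the block and 0.000602 without), and Batf3 was called lower in Tumor against Lyso (0.0415 and 0.0345). With the block, 3 AP-1 genes rather than 4 were called in Lyso against WT (Fosb was lost, adjusted p = 0.184) and 9 rather than 10 in Tumor against Lyso (Maff was at 0.943, under the fold minimum, against 1.104). Over all genes in Tumor against WT, 793 were called with the block and 1129 without. Mean levels moved by less than the SD between replicates for 38 of 40 values when scaled by library size alone. The exceptions were Junb (115.9 CPM) and Atf3 (34.9 CPM) in Lyso. Depth limits Batf3 and Fosl1, whose counts in WT 1, WT 2 and some other libraries were 3 or fewer.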

Other observations

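Beyond the comparisons with WT, the other immediate early genes were also set against the remaining groups. Of the 19 tested, 17 were called higher in Tumor than in the relapsed lines, with a median log2 fold change of 2.95, and 17 higher than in Lyso, with a median of 2.14. Lyso had 7 of the 19 called higher and 1 lower than the relapsed lines, with a median of 0.48. In the relapsed lines against WT, edgeR called 0 of the 19, of which 5 had an unadjusted p under 0.05, and DESeq2 called 2 lower. Of the AP-1 target genes, 8 of the 20 tested were called higher in Tumor than in the relapsed lines and 8 higher than in Lyso, with medians of 0.61 and 0.66. The comparisons with Tumor share its 3 libraries. Over all genes tested, edgeR called 8.36% higher in Tumor than in the relapsed lines and 8.78% higher than in Lyso. In Lyso against the relapsed lines it called 3.21% higher and 1.04% lower. In the relapsed lines against WT the shares were 0.0134% and 0.0268%.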
